A study of Mus musculus with 6 samples.

Results

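Meg3, Rian and Mirg are imprinted noncoding RNAs of mouse chromosome 12, and every read pair with an end in any of the 3 was gathered from a set of RNA–RNA interactome libraries. The genes were chosen by name and are 3 of 22868 genes (small RNA genes left out) with an end in the libraries described. Read pairs belonged to them by the deposited RNA name in the embryonic stem (ES) cell libraries. In the brain files they belonged by place, or by sequence, because the deposited brain names and the sequences disagreed. The deposited names called Meg3, Rian or Mirg in 25, 48 and 6 distinct brain read pairs, and 0 of these had an end in the named gene by sequence. All 3 genes had an end in each of the 5 files.

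The method, MARIO, ligates RNAs that are held together on proteins to a biotin-tagged linker, so that each sequenced molecule carries a first fragment (RNA1), the linker and a second fragment (RNA2). ES-1 and ES-2 were separate assays on E14 ES cells of strain 129/Ola, crosslinked with UV light of 254 nm and fragmented with RNase I, per the labels to about 1000 nt. The methods give a longer upper size for ES-1 than for ES-2, and the assays also differed in how ribosomal RNA was removed (ES-1 with duplex-specific nuclease, ES-2 with the GeneRead kit). ES indirect came from the same cells, crosslinked with formaldehyde and EGS (agents that also tie proteins to proteins), sonicated to about 1000 nt and treated with the nuclease. Brain 1 and brain 2 were labelled technical replicates of the whole brain of 1 adult female C57BL/6J mouse, whose powder was irradiated 3 times with 400 mJ/cm2 at 254 nm, and they were merged as 1 sample. Brain and ES cells therefore differed in tissue, strain, irradiation and the number of cell types present. In such bulk material fewer cells of a type and less RNA per cell cannot be told apart.

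These genes lie side by side, in the same direction, in the Dlk1-Dio3 imprinted domain and are transcribed from the chromosome inherited from the mother. Meg3 is a spliced nuclear long noncoding RNA that is abundant in the nervous system. Rian is the host of a tandem array of C/D box small nucleolar RNAs (snoRNAs), which are cut out of its introns and in other genes guide 2′-O-methylation of ribosomal RNA. Mirg hosts a cluster of microRNAs. On NCBIM37 (mm9), plus strand, Meg3 lay at chr12:110779211-110809936, Rian at chr12:110842155-110899919 and Mirg at chr12:110973191-110987665. Exons, merged over annotated transcripts, made up 58.9% of the bases of Meg3, 14.2% of Rian and 21.9% of Mirg.

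The sequences on which the ES results turned were 4 short stretches of Rian. Places 1 and 2 are where the Rian ends of ES-1 and ES-2 gathered. The other 2 are the annotated snoRNAs inside Rian with the most ends, for comparison. All are on the plus strand of NCBIM37, 5′ to 3′, and the capitals mark the letters TGATGA (the C box of this snoRNA class) within the first 15 bases and CTGA (the D box) within the last 15.
Rian place 1, chr12:110881050-110881116, intron after exon 11: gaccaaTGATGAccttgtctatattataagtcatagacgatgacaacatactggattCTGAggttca
Rian place 2, chr12:110888879-110888949, inside exon 15: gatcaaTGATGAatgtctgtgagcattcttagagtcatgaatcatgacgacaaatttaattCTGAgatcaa
SNORD113 ENSMUSG00000088294, chr12:110874222-110874294: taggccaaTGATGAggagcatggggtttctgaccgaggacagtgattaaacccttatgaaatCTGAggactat
SNORD113 ENSMUSG00000084549, chr12:110887827-110887898: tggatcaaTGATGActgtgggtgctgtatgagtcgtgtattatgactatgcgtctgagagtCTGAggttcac
Both boxes were present, at these edges, in 7 of the 13 snoRNAs that GENCODE vM1 annotates inside Rian. They were present in 0.173% of all 67-base windows of the Rian span and in 0.0196% of those of Meg3, read on the RNA strand alone. GENCODE vM1, the annotation used for NCBIM37, lists no snoRNA at places 1 and 2. The ES cell ends counted there carried the deposited name Rian. RefSeq's table for GRCm38 lists the snoRNA AF357426, of 67 bases, at the same distance from the start of Rian as place 1, to within 2 bases at each edge. It also lists AF357359, of 30 bases, wholly inside place 2. Exon 15 is a merge over annotated transcripts. In brain, 1 end skipped an intron at chr12:110888368-110889222, which covers place 2. Another 1 skipped chr12:110887453-110888281, which covers SNORD113 ENSMUSG00000084549. Place 2 therefore counts as exonic below although it was intronic in that spliced fragment.

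A distinct read pair is a set of lines with the same places of both fragments, and each has 2 ends. ES-1 held 2310134 distinct read pairs, ES-2 1241787, ES indirect 1655476 and brain 747404. Distinct read pairs with an end in Meg3 numbered 49 in ES-1 and 27 in ES-2, then 264 in ES indirect and 1249 in brain. Rian had 536, 150, 433 and 299 in the same order. Mirg had 8, 1, 25 and 42. By read pairs, with no account of gene length, Meg3 was the most frequent of the 3 in brain and Rian in each of the ES cell libraries. Most Rian ends of ES-1 and ES-2 lay at the short places 1 and 2, as described below. Nearly all ends lay on the strand of the RNA. The sense share was lowest for Mirg in ES-1, at 7 of 8 ends, and was 99.5% of 2400 ends for Meg3 and 100% of 575 for Rian in brain.

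Levels are given as ends per 1000000 ends (EPM) of read pairs with neither end ribosomal or mitochondrial, with exact Poisson 95% intervals. These intervals, and the Wilson 95% intervals of shares below, cover counting error only, since amplified molecules are not independent. Brain levels count only ends placed on NCBIM37 by sequence. Meg3 stood at 32.3 EPM in ES-1 (20.7 to 48.1, 24 ends), 46.2 in ES-2 (28.6 to 70.6, 21 ends), 253 in ES indirect (228 to 281) and 1778 in brain (1699 to 1860, 1906 ends). Its brain interval lay above those of all ES cell libraries, and those of ES-1 and ES-2 overlapped. The brain level of Meg3 was 45.3 times the mean of ES-1 and ES-2, with ratios of 55.1 to ES-1 and 38.5 to ES-2. Against ES indirect the ratio was 7.02. With ends placed by sequence in the ES cell libraries too it was 69.6 against the mean of ES-1 and ES-2, and with all distinct read pairs in the denominator 110.

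Rian stood at 343 EPM in ES-1 (302 to 388), 167 in ES-2 (132 to 209), 340 in ES indirect (311 to 372) and 414 in brain (377 to 455). ES-1 and ES indirect did not differ beyond counting error, the intervals of ES-1 and brain overlapped, and ES-2 was below all of them. The ratio of brain to the mean of ES-1 and ES-2 was 1.62, from 1.21 against ES-1 to 2.48 against ES-2. It was 3.61 with ends placed by sequence in the ES cell libraries too, and 3.27 with all distinct read pairs in the denominator. It was 1.07 by read pairs instead of ends and 1.22 against ES indirect. Mirg, the least frequent, stood at 9.42 in ES-1 (3.79 to 19.4, 7 ends), 2.20 in ES-2 (0.0556 to 12.2, 1 end), 22.5 in ES indirect (15.4 to 31.7) and 61.6 in brain (47.6 to 78.3, 66 ends). Its ratio of brain to the mean of ES-1 and ES-2 was 10.6, and the ratios to the separate libraries, 6.54 and 28.0, rested on those few ends. The same changes of placement and denominator gave 34.8 and 41.4, while counting read pairs gave 6.26, exons alone 6.01 and ES indirect as the ES library 2.74. Per kilobase of gene span, the brain levels were 57.9 EPM for Meg3, 7.17 for Rian and 4.25 for Mirg. In ES indirect they were 8.25, 5.89 and 1.55, so that Meg3 was also above Rian there, while in ES-1 Rian, at 5.94, was above Meg3, at 1.05. Places 1 and 2, described below, held 86.7% of the Rian ends of ES-1 and 87.3% of those of ES-2. Without them Rian stood at 56.5 EPM in ES-1 and 30.8 in ES-2 over its longer span, beside 32.3 and 46.2 for Meg3. The order of Rian above Meg3 in these libraries thus rests largely on those short places.

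**Figure D1:**
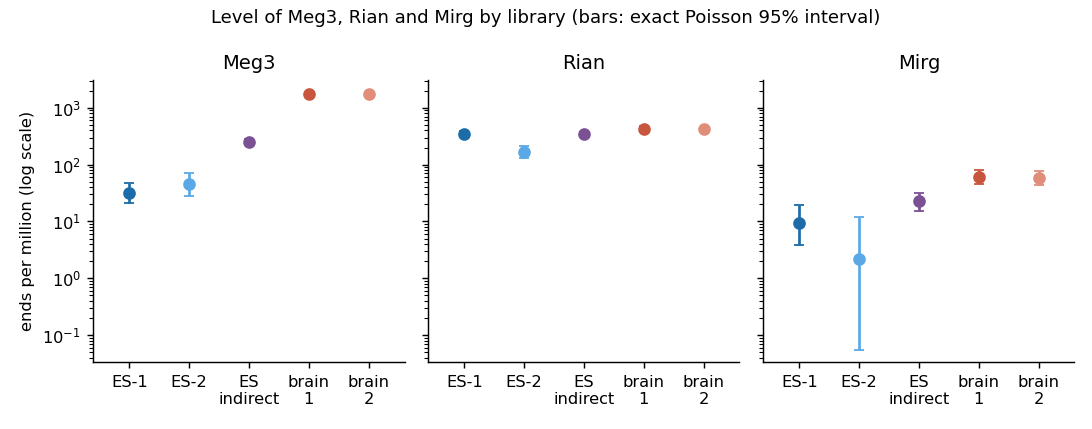
Level of each RNA (y axis, EPM, log scale) in ES-1, ES-2, ES indirect, brain 1 and brain 2 (x axis), with exact Poisson 95% intervals as bars. Meg3 rises from 32.3 in ES-1 to 1763 in brain 1 and 1724 in brain 2, while Rian lies between 167 and 431 in all of the libraries.

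A gene was called higher in brain where its brain level was at least 4 times that of whichever ES cell library was highest, a rule of size with no p-value because brain was 1 sample. Of all genes with at least 20 ends, 12.9% met it (1658 of 12871). Meg3 met it and Rian and Mirg did not, so 1 of the 3 was called. The median gene had a brain level 2.08 times the mean of ES-1 and ES-2 (12601 genes with an ES end), against 45.3, 1.62 and 10.6 for Meg3, Rian and Mirg. At a fold of 2, Mirg was called as well, beside 25.8% of all genes. At a fold of 8, 0 of the 3 was called, beside 5.90%. With every deposited line counted, Meg3 stood at 450 EPM in ES indirect and 1693 in brain, short of a fold of 4. Mirg then stood at 36.2 and 57.7, short of a fold of 2. The share of all genes past either fold was not computed for that count.

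Neighbours in the domain were few in number here. Dlk1, a transmembrane Notch-like protein expressed from the father's chromosome, was called at 6.93 times the highest ES library, with 20 ends in brain. Begain, a synaptic protein gene at the edge of the domain, stood at 67.2 EPM in brain and 19.8 in the highest ES library and was not called. Rtl1, a retrotransposon-derived gene of the father's chromosome, had 65.3 in brain and 54.7 in ES indirect and was not called. Dio3 and its antisense RNA Dio3os had too few ends. Among 9 other imprinted genes with enough ends, 4 were called (Igf2, Snrpn, Peg3 and Gnas), and among 6 other nuclear long noncoding RNAs, 4 were (Neat1, Miat, Snhg11 and Xist). Malat1, the most frequent of these, was at 1922 EPM in brain and 2681 in ES indirect. Neat1 and Xist had 0 ends in ES-1, ES-2 and ES indirect, so they met the rule at any brain level. ES ends carry deposited names and brain ends GENCODE vM1 names, so a name missing from the former would look the same. All 8 brain markers and 0 of 8 ES cell markers were called. Of the ES cell markers, 6 had 0 ends in brain, Pou5f1 and Nanog among them.

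The genes whose levels over the 4 libraries lay nearest to those of the members (Euclidean distance of log2 levels plus 1, among 12870 genes) were protein-coding. They were Rora, at a distance of 1.07, then Ank3, Fgf14, Dlgap1 and Mtap1b for Meg3, and Pkm2, at 0.99, then Actb, Srrm2, Fam190a and Arhgap26 for Rian. For Mirg they were Sesn3, at 0.45, then Slc35e2, Atg13, Nipa1 and Etv1, where low counts make many genes alike.

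The positions of the ends told Rian in ES-1 and ES-2 apart from Rian elsewhere. In ES-1, place 1 held 196 of 563 ends in a window of 120 bases (34.8%, 31.0 to 38.8%) and place 2 held 292 (51.9%, 47.7 to 56.0%). In ES-2 they held 64 (42.7%) and 67 (44.7%) of 150. Both together took 86.7% of the Rian ends of ES-1 and 87.3% of those of ES-2, against 4.95% of 586 in ES indirect (3.47 to 7.02%) and 0.870% of 575 in brain (0.372 to 2.02%). The windows were chosen on ES-1 and ES-2, so their share there is a description.

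The fragments at place 1 shared their edges. Of the RNA1 fragments there, 112 of 136 in ES-1 and 46 of 47 in ES-2 stopped within 1 base of the 3′ edge printed above, which lies next to the linker. Of the RNA2 fragments, 41 of 60 in ES-1 and 12 of 17 in ES-2 began within 1 base of the 5′ edge, again next to the linker. The printed edges were themselves set as the commonest RNA2 start and the commonest RNA1 stop at each place over ES-1 and ES-2. That ends match them often follows in part from that choice, so the counts only describe how sharp the edges were. At place 2 the edges were less sharp. There, 52 of 124 RNA1 fragments in ES-1 and 14 of 23 in ES-2 stopped at the 3′ edge, and 41 of 168 and 19 of 44 RNA2 fragments began at the 5′ edge.

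Reads named for the annotated snoRNAs inside Rian were, in sum and by raw count, most frequent in ES-1. The 3 snoRNAs with the most ends in ES-1 were picked on that library, so their order over the libraries is a description. The 13 together had 836 ends in ES-1 and 226 in ES-2, then 99 in ES indirect and 12 in brain, and 11 of them had an end somewhere. SNORD113 ENSMUSG00000088294, which RefSeq calls AF357425, had 379, 108, 10 and 1. SNORD113 ENSMUSG00000084549 had 262, 77, 19 and 1, and AF357355 had 109, 12, 14 and 1. Other members of the array had another order. Per 1000000 of all distinct ends, SNORD113 ENSMUSG00000084691 had 9.36 in ES indirect (6.36 to 13.3), 5.41 in ES-1 (3.50 to 7.99) and 2.82 in ES-2 (1.13 to 5.81), and SNORD113 ENSMUSG00000064417 had 3.32, 3.25 and 2.01, with overlapping intervals. The former overlaps a stretch of Rian that is the same, base for base, on chromosome X, so its reads may come from either place. With places 1 and 2 added, the 15 segments came to 287 ends per 1000000 of all distinct ends in ES-1 (271 to 302), 144 in ES-2 (129 to 159), 38.7 in ES indirect (32.3 to 46.0) and 11.4 in brain (6.63 to 18.2). For Rian, fragment length separated the same pairs of libraries. The median length of Rian fragments was 41.0 bases in ES-1 and 35.0 in ES-2, then 90.0 in ES indirect and 80.0 in brain. Most of these ES-1 and ES-2 fragments lay at places 1 and 2, with medians of 45.0 and 37.0 in ES-1 and 41.5 and 33.0 in ES-2. For Meg3 the medians were 77.0 in ES-1 and 38.0 in ES-2, then 90.0 in ES indirect and 80.0 in brain. The part of fragment length in the result was not tested.

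**Figure D2:**
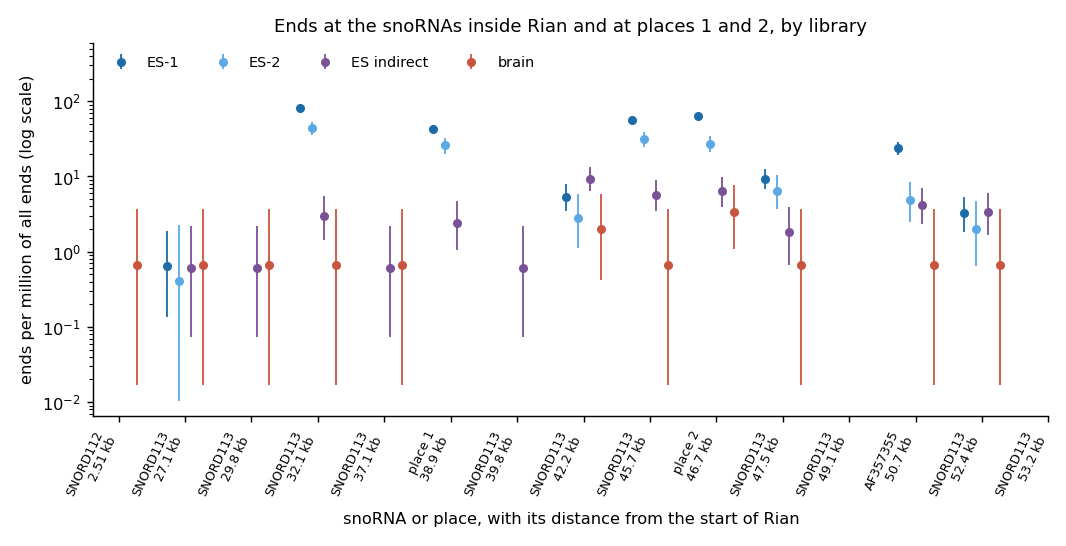
Ends per 1000000 of all distinct ends (y axis, log scale) at places 1 and 2 and at the 13 annotated snoRNAs inside Rian, ordered by distance from its start (x axis, kb), in 4 libraries, with exact Poisson 95% intervals. Segments with 0 ends in a library have no point. ES-1 and ES-2 lie above ES indirect and brain at both places and at the snoRNA 32.1 kb from the start.

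Places 1 and 2 were chosen where ES-1 and ES-2 ends gathered, so leaving them out had to raise the ratio of brain to ES cells, and the values without them are a description. Outside them, Rian stood at 56.5 EPM in ES-1 (40.7 to 76.4), 30.8 in ES-2 (16.8 to 51.6), 326 in ES indirect (297 to 357) and 411 in brain (373 to 451), and brain was 9.41 times the mean of ES-1 and ES-2. On exons alone the ratio was 0.817, from 237 EPM in ES-1 and 101 in ES-2 to 138 in brain. The brain value counts 148 exonic ends, only those placed by sequence in the read pairs used for levels. By stated place or sequence, 244 of the 575 Rian brain ends overlapped an exon and 331 did not, and 97 crossed a splice junction. ES cell ends keep their deposited places, so the bases are unlike, and the part of placement in the turn below 1 was not tested. Exon 15 had 59.7% of the Rian ends of ES-1, 49.3% of those of ES-2, 30.2% of those of ES indirect and 7.83% of those of brain. As a merged exon it holds place 2, so the exonic values of ES-1 and ES-2 include the ends there.

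**Figure D3:**
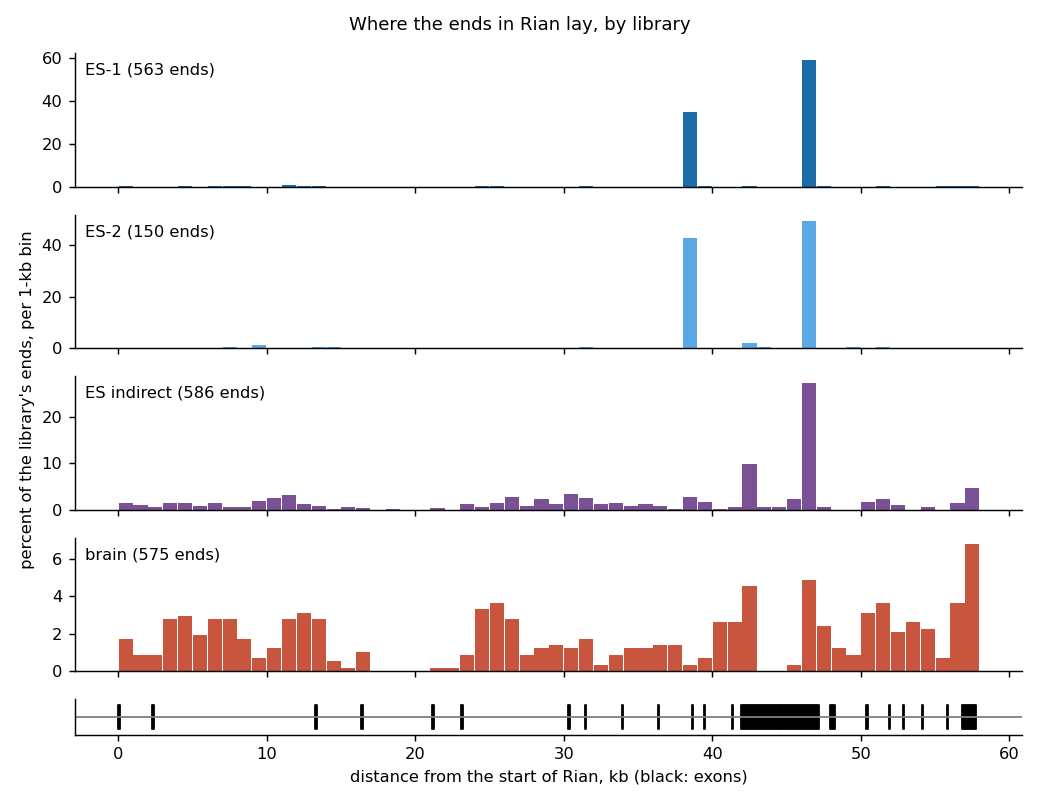
Percent of each library's Rian ends (y axis) in 1-kb bins along the gene (x axis, kb from its start), with the exons drawn below. In ES-1 and ES-2 the bins at 38 and 46 kb hold nearly all ends, and in brain the ends are spread, with 6.78% in the highest bin.

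In brain, Rian ends were spread over introns and exons. Of 575 ends 42.4% overlapped an exon (38.5 to 46.5%), and no window of 120 bases held more than 15 ends. Exons 17 to 21, each of 53 to 147 bases, had 26 to 33 ends each, and the last exon, exon 22, had 60. In ES indirect, exons had 54.9% of 586 ends (50.9 to 58.9%), most of them in exons 14 and 15.

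Meg3 showed a different order. In brain 92.2% of its 2400 ends overlapped an exon (91.0 to 93.2%), against 63.5% of 52 in ES-1 (49.9 to 75.2%), 60.0% of 30 in ES-2 (42.3 to 75.4%) and 62.7% of 408 in ES indirect (58.0 to 67.3%). The interval of brain lay above those of the ES cell libraries, which overlapped each other and, in ES-1, ES-2 and ES indirect alike, held the 58.9% of the span that is exonic. The last exon, exon 8, is 13087 bases long and had 52.0% of the brain ends, 27.2% of those of ES indirect, 7.69% of those of ES-1 and 13.3% of those of ES-2. Mirg had 39.5% of 81 brain ends in exons (29.6 to 50.4%) and 40.0% of 35 in ES indirect (25.6 to 56.4%), and its counts in ES-1 and ES-2 were too low to compare. With every deposited line counted, its shares were 36.8% in brain (30.1 to 43.9%) and 61.9% in ES indirect (52.7 to 70.4%), which did not overlap.

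**Figure D4:**
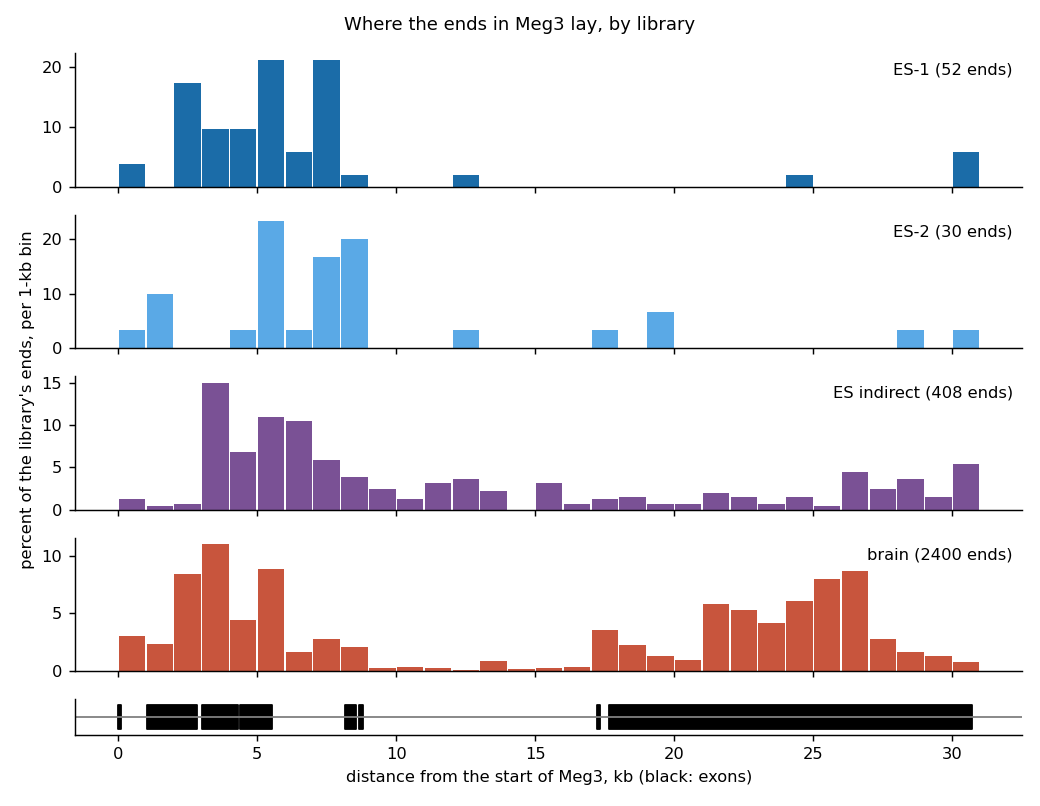
Percent of each library's Meg3 ends (y axis) in 1-kb bins along the gene (x axis, kb from its start), with the exons drawn below. In ES-1 and ES-2 most ends lie in the first 9 kb, also in introns, and in brain the bins between 9 and 17 kb, which hold an intron, are nearly empty while the last exon is filled.

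Some brain fragments crossed a splice junction. These were 260 of 2400 Meg3 ends, 97 of 575 Rian ends and 5 of 81 Mirg ends, and 253, 91 and 5 of them skipped exactly an annotated intron. The junctions used most in Meg3 skipped introns of 221 bases (chr12:110782016-110782236, 91 ends) and 2600 bases (chr12:110779310-110781909, 56 ends), and the most used in Rian had 17 ends. The exon sequences they joined are printed for Meg3, with the 2 bases on each side of the join in capitals.
Meg3, across the 221-base intron: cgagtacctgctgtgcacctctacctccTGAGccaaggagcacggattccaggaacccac
Meg3, across the 2600-base intron: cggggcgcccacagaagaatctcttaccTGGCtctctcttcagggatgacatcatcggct
Both introns begin with GT and end with AG. Read pairs of the ES cell files give each fragment as 1 unbroken place, so splicing was not compared there.

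Both ends of a read pair lay in the same RNA more often in brain and ES indirect than in ES-1 and ES-2, for Meg3 and for Rian. For Meg3 this held for 3 of 49 read pairs in ES-1, 3 of 27 in ES-2, 144 of 264 in ES indirect (54.5%) and 1151 of 1249 in brain (92.2%). For Rian it was 27 of 536, 0 of 150 (up to 2.00% by the limit of 3 counts), 153 of 433 and 276 of 299 (92.3%). For Mirg it was 0 of 8, 0 of 1, 10 of 25 and 39 of 42. Over all RNAs, 18.7%, 10.2%, 62.9% and 98.3% of read pairs lay within 1 RNA, in the same order of libraries. That base holds only read pairs with both ends named and neither ribosomal or mitochondrial. The members' shares also count ribosomal, mitochondrial and unnamed partners, so the bases are unlike and the shares cannot be compared directly. The part of the libraries' shares in the members' shares was not tested. Of the 1151 pairs within Meg3 in brain, 712 were found in both brain files.

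Most of these pairs had both ends at nearby bases. The median distance between midpoints in brain was 135 bases in Meg3, 128 in Rian and 133 in Mirg, and in ES indirect 97.0, 104 and 126. More than 2000 bases apart were 115 of the 1151 brain pairs of Meg3 (9.99%, 8.39 to 11.9%), 29 of the 276 of Rian (10.5%, 7.42 to 14.7%) and 2 of the 39 of Mirg. Nearly all the far pairs had an exon at both ends, 113 of 115 in Meg3 and 27 of 29 in Rian. Measured between the facing edges of the fragments, 88 Meg3 pairs were more than 2000 bases apart on the genome. With the annotated introns between the fragments left out of the distance, 3 were (0.261%, 0.0887 to 0.764%). For Rian the same step took 6 pairs to 1. In ES indirect 5 of 144 Meg3 pairs lay over 2000 bases apart and all 5 remained so with introns left out, and for Rian 13 pairs became 7.

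**Figure D5:**
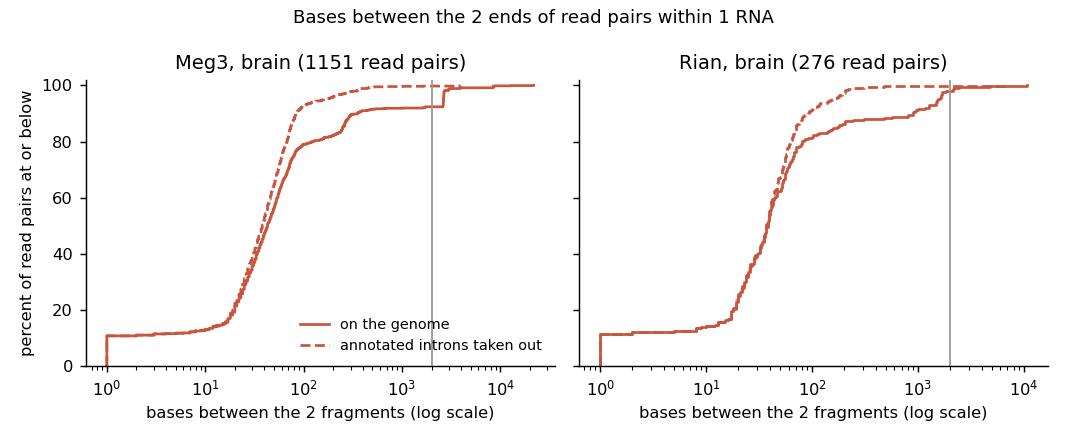
Cumulative percent of brain read pairs within Meg3 and within Rian (y axis) by the number of bases between the facing edges of both fragments (x axis, log scale, overlapping fragments drawn at 1), on the genome (solid) and with annotated introns left out (dashed). The vertical line marks 2000 bases. In Meg3, 88 pairs lie beyond it on the genome and 3 with introns left out.

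A continuous piece of RNA would put RNA1 upstream of RNA2, and the study's methods for pairs within 1 gene name separate filters against such pieces, on a missing linker, on opposite read strands within 2000 bases and on the order of the reads of both strands. Whether the deposited pairs had passed these filters was not tested. The layout of an uncut piece, RNA1 upstream with midpoints within 2000 bases, was found in brain in 789 of 1151 Meg3 pairs (68.5%). It was found in 174 of 276 Rian pairs (63.0%) and 22 of 39 Mirg pairs (56.4%). How many of these were cut and ligated was not tested. RNA1 lay downstream of RNA2, on the same strand, in 258 of 1151 Meg3 pairs in brain (22.4%, 20.1 to 24.9%), in 83 of 276 Rian pairs (30.1%) and in 16 of 39 Mirg pairs (41.0%, 27.1 to 56.6%). In ES indirect it did in 13 of 144 Meg3 pairs (9.03%, 5.35 to 14.8%) and in 33 of 153 Rian pairs (21.6%, 15.8 to 28.7%). The median distance of the downstream pairs in brain, 120 bases in Meg3 and 140 in Rian, was near that of the upstream ones, 137 and 126. In ES indirect the downstream pairs were farther apart, at 145 bases against 97.0 in Meg3 and 263 against 100 in Rian, a difference that was not tested.

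Ribosomal RNA was the most frequent class of partner of Rian in the ES cell libraries, among read pairs with only 1 end in a member. In ES-1, 303 of 509 such Rian pairs had a ribosomal partner (59.5%, 55.2 to 63.7%), 107 a snoRNA and 52 a protein-coding RNA. In ES-2 it was 73, 18 and 25 of 150. In ES indirect 101 of 280 Rian pairs and 47 of 120 Meg3 pairs joined ribosomal RNA. Ribosomal RNA had an end in 82.4%, 81.3% and 56.7% of all distinct read pairs of these libraries. Those shares include pairs of ribosomal RNA with itself, so they are no measure of how often other RNAs had a ribosomal partner, which was not computed. In brain only 98 Meg3 pairs, 23 Rian pairs and 3 Mirg pairs joined another RNA, and of the 98, 35 joined a protein-coding RNA, 20 a mitochondrial RNA and 15 ribosomal RNA. No read pair joined 2 of the 3 members in ES-1, ES-2, ES indirect or brain.

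Some partners at places 1 and 2 of Rian were H/ACA snoRNAs, the class that guides pseudouridylation. In ES-1 these were 24 of 196 partners at place 1 (12.2%, 8.37 to 17.6%), 52 of 292 at place 2 (17.8%, 13.8 to 22.6%) and 15 of 75 elsewhere in Rian (12.5 to 30.4%), and these intervals overlapped. In ES-2 they were 5 of 64 and 7 of 67 at places 1 and 2 and 2 of 19 elsewhere, and in ES indirect 0 of 8, 0 of 21 and 1 of 557. In ES-1, ribosomal RNA was the partner of 66.8% at place 1 (60.0 to 73.0%) and 48.3% at place 2 (42.6 to 54.0%). Elsewhere in Rian it was 42.7% (32.1 to 53.9%), which overlapped place 2. The base of these shares includes ends joined to Rian itself, 4 of 196 at place 1, 33 of 292 at place 2 and 17 of 75 elsewhere. In ES-2 ribosomal RNA was 56.2% at place 1 (44.1 to 67.7%), 47.8% at place 2 and 26.3% elsewhere (11.8 to 48.8%), and place 1 overlapped both. Outside ribosomal RNA, the most frequent single partner of Rian in ES-1, the H/ACA snoRNA Snora81, had 13 read pairs where 12.1 would be expected from how often each RNA was joined to any other, and was not called (adjusted p = 0.570, one-sided Fisher's exact test).

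The test of partners asked, for each pair of RNAs joined in a library, whether they were joined more often than these totals give. It was a one-sided Fisher's exact test with Benjamini-Hochberg adjustment over all joined pairs. Calls needed at least 3 distinct read pairs besides an adjusted p below 0.05. Its units are read pairs, so it describes each library and carries no replicate error. In ES-1, 1.09% of all pairs were called and 1 of 149 with a member was. In ES-2 it was 0.719% of all and 0 of 76 with a member, none of which reached 3 read pairs, so no call was possible. At an unadjusted p under 0.05 of Fisher's exact test 38 of the 76 passed, beside 48.7% of all pairs. Only pairs seen joined were tested, so 1 read pair passes wherever its expected count is small, and such shares are a description. In ES indirect 2.54% of all were called and 5 of 136 with a member. In brain it was 0.387% of all and 0 of 45 with a member. At an unadjusted p under 0.05 of Fisher's exact test 31 of the 45 passed, beside 70.8% of all pairs. Of the 45, only Meg3 with mt-Rnr2, the large mitochondrial ribosomal RNA, reached 3 read pairs, with 4 where 5.67 were expected.

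The called pair of ES-1 joined Mirg to Snora26, an H/ACA snoRNA, in 4 distinct read pairs where 0.0257 were expected (adjusted p = 2.08e-06, Fisher's exact test). In all 4, Snora26 was RNA1 and its fragment began at the same base, and the Mirg fragment stopped at the same base. The Mirg fragments were 31 to 33 bases long, and the last 20 bases occur at 1 place in NCBIM37. Lines came from both flow cells, 3 from 1 and 7 from the other. The stretches joined, both on the plus strand of NCBIM37, were these.
Mirg, exon 3, chr12:110979226-110979258: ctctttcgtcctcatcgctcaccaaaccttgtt
Snora26, first 60 bases, chr5:74489574-74489633: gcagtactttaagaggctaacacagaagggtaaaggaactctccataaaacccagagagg
The shared edges are those away from the linker, and the edges next to it differed between read pairs. The p-value takes the 4 read pairs as separate joins, and whether they came from separate molecules was not tested. The pair had 0 read pairs in ES-2.

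The 5 called pairs of ES indirect had partners on chromosome X. Meg3 was joined to a simple repeat named (CACCC)n in 6 read pairs and to Mir1906-2 in 3, and Rian to a SNORD113 gene (ENSMUSG00000084459) in 4 and to the LINE elements Lx7 and Lx in 4 and 3. Their adjusted p ranged from 6.80e-17 to 0.0238 (Fisher's exact test). Set against the member itself, 19 of the 20 partner fragments were found in the member's own span with at most 10% edits. Of these 20, 17 fitted the member as well as their stated place on X and 3 fitted X better. The following stretches of a partner were the same, base for base, in the member and on X.
Meg3, chr12:110782641-110782740 plus strand and chrX:86004903-86005002 minus strand: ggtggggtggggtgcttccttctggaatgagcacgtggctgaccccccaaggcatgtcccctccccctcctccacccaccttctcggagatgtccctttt
Rian, chr12:110884375-110884464 plus strand and chrX:61749795-61749884 plus strand: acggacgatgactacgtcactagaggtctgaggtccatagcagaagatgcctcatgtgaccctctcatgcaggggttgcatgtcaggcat
A read pair between such stretches cannot be told apart from a read pair within the member. With all fragments placed by sequence, 0 pairs with a member were called in ES-1, ES-2, ES indirect or brain. That placement leaves out fragments with more than 1 place, and some with 1. Under it the level of Mirg in ES-1 fell from 9.42 to 1.35 EPM, although the last 20 bases of its joined stretch occur at 1 place. That setting kept 42 of 205 read pairs with a member in ES-1 and 20 of 164 in ES indirect. Over all RNAs it lowered the calls from 1478 to 99 in ES-1 and from 3627 to 37 in ES indirect.

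The microRNAs inside the members had few ends. The 2 microRNA genes inside Meg3 had 1 end in ES-1 and 2 in ES-2, then 6 in ES indirect and 13 in brain, 12 of the latter at Mir1906-1. Its mature form, from RefSeq and with its seed (bases 2 to 8) in capitals, is the same as that of Mir1906-2 on X.
mmu-miR-1906: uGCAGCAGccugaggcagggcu
The 10 microRNA genes inside Mirg had 0, 2, 0 and 6 ends, and 5 of the 10 had an end in any of these libraries. The 4 inside Rian had 0, 0, 3 and 2.

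Each ES cell library was read on 2 flow cells. Within them Meg3 stood at 32.5 and 35.3 EPM in ES-1, at 49.1 and 43.9 in ES-2, and at 280 and 334 in ES indirect. Rian stood at 357 and 364 EPM in ES-1, at 162 and 161 in ES-2, and at 315 and 451 in ES indirect, where the intervals, 281 to 352 and 405 to 500, did not overlap. ES-1 and ES-2 shared their flow cells, and brain was read on others, so flow cell and tissue cannot be told apart. The order of Rian in ES-1 above ES-2 was the same on both.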

How the data were processed

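The deposited files list 1 read pair a line, with the place, strand, name and sequence of both fragments, after the authors removed duplicates, found the linker and aligned the fragments (TopHat2 2.1.1, mm9 and NCBIM37 per the labels' processing notes). Brain places fitted GRCm38, and 2490 of 2490 unspliced member fragments differed from NCBIM37 by 1238210 bases, so brain fragments were placed anew on NCBIM37 with minimap2 2.31 (mapping quality at least 10 for levels). Lines with equal places of both fragments were counted once. Brain fragments were named from GENCODE vM1, and ES cell fragments kept their deposited names. Levels leave out read pairs with a ribosomal or mitochondrial end (742984 ends remained in ES-1 and 454962 in ES-2, then 1424706 in ES indirect and 1071776 in brain). With 1 brain, no test between groups was run. Partners were tested with Fisher's exact test (SciPy 1.17.1), and the script was tested on simulated data. The members, lists and rules were chosen with earlier results of these data known. Genes most alike were the 5 nearest to each member, and the text names every called partner. The alternatives are given in the closing section.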

Additional observations from a re-analysis of the deposited data

How the results depend on the processing

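Of 238 alternative values, 154 moved by less than the limits set, 83 moved by more and 1 reversed. Some of the 154 could not move, so the count is no measure of robustness. A higher mapping quality minimum cannot change ES levels, which keep deposited names, nor placement by sequence the brain levels. For the ratios the limit was the standard deviation of the ratios to ES-1 and ES-2. For Mirg that was 15.2, so even a ratio of 2.74 fell within it. The reversal was the ratio of brain to ES cells for Rian on exons alone, 0.817, whose brain level counts only exonic ends placed by sequence. By deposited position the brain levels over the whole gene were higher, 2213 EPM for Meg3, 533 for Rian and 74.6 for Mirg. With all distinct read pairs as the denominator the ratios were 110 for Meg3, 3.27 for Rian and 41.4 for Mirg, and the share of ribosomal read pairs enters that denominator. With places by sequence in every library they were 69.6, 3.61 and 34.8. That setting left the brain levels as they were and lowered those of ES-1, for Rian from 343 to 179 EPM. For Meg3 the ratio was 30.6 by read pairs, 65.6 on exons alone and 7.02 with ES indirect as the ES library. For Rian it was 1.07 by read pairs, 1.22 with ES indirect and 9.41 without places 1 and 2, an alternative chosen, like the count by read pairs, after seeing the data. For Mirg it was 6.26 by read pairs, 6.01 on exons alone and 2.74 with ES indirect. Leaving out ES-1, ES-2, brain 1 or brain 2 gave 38.5 to 55.1 for Meg3, 1.21 to 2.48 for Rian and 6.54 to 28.0 for Mirg. The highest was without ES-2 for Meg3 and without ES-1 for Rian and Mirg. At a fold of 2, 3327 genes and 2 members were called higher in brain, and at a fold of 8, 759 and 0. Counting only ends wholly in an exon gave 89.3% for Meg3 and 28.4% for Mirg in brain. Over 1000 bases apart were 16.4% of the brain pairs within Meg3 and 19.6% within Rian, and over 5000 bases 1.13%, 1.09% and, in Mirg, 0. Called pairs with a member, at a minimum of 2 read pairs, numbered 3 in ES-1, 1 in ES-2 and 3 in brain, beside 3849, 1995 and 159 over all RNAs. With every deposited line counted they numbered 11 in ES-1, 12 in ES indirect and 7 in brain, beside 14244, 9731 and 866, and with places by sequence 0 in ES-1 and 0 in ES indirect, beside 99 and 37. Other causes were not tested. No paired analysis was possible because brain was 1 library sequenced again and its replicate numbers share nothing with those of the ES cells. Low counts limit Mirg, with 7 ends in ES-1 and 1 in ES-2.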

Other observations

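A library of mouse embryonic fibroblasts (MEF) of strain C57Bl/6, crosslinked with UV light and fragmented to about 300 nt, had few ends in the 3 RNAs. Meg3 had 7 distinct read pairs, Rian 9 and Mirg 1. The levels were 15.0 ends per 1000000 for Meg3 (exact Poisson 95% interval 5.50 to 32.6), 15.0 for Rian (5.50 to 32.6) and 2.50 for Mirg (0.0633 to 13.9). Only 1 of the 7 Meg3 ends and 5 of the 9 Rian ends lay on the strand of the RNA. None of these read pairs had both ends in the same member. Place 2 of Rian held 1 of the 9 ends and place 1 held 0, and the annotated snoRNAs inside Rian had 3 ends.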
